A study of Homo sapiens with 6 samples.

Results

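Long noncoding RNAs were followed across 2 human prostate cancer cell lines in which PLXND1 was knocked down. The 8 RNAs chosen were the nuclear RNAs MALAT1 and NEAT1, the growth-arrest RNA GAS5, the prostate RNAs PCA3, PCAT1 and PCGEM1, and the imprinted RNAs H19 and MEG3. They were taken from the 58735 genes of the expression table by name, as the rows whose Ensembl gene ID carries one of these symbols in GENCODE release 29, a rule that uses no measured value. Of the 8, the 3 RNAs MALAT1, NEAT1 and GAS5 reached a mean of at least 1 FPKM over the 3 libraries of a line, as did 15638 of all genes and 1901 of 16054 long noncoding genes. FPKM scales fragments by exon length and by library size, so it compares genes per length. The other 5 RNAs stayed under that level in both lines and are described from their fragment numbers.

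H660, the NCI-H660 line, is a model of neuroendocrine prostate cancer. C4-2B MDVR derives from C4-2B prostate cancer cells and resists enzalutamide, a blocker of the androgen receptor. In each line 1 library came from cells given siRNA 1 against PLXND1, 1 from cells given siRNA 2 against PLXND1 and 1 from cells given a control siRNA, which makes 6 libraries. The siRNA numbers are those of the sample titles, which do not state that a number names the same siRNA in both lines. PLXND1 encodes Plexin D1, a receptor for semaphorins, and the series asks about its part in the neural shift of treatment-resistant prostate cancer. Each line is a single established line, no control was repeated, and separate cultures are not stated, so p-values measure only the spread between these libraries.

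The libraries held between 17655802 and 24105369 fragments assigned to genes. The 6 luminal prostate markers summed to 0.365 to 0.463 FPKM in H660 and to 579 to 1164 FPKM in C4-2B MDVR, and the 6 neuroendocrine markers summed to 988 to 1027 FPKM in H660 and to 0.705 to 1.35 FPKM in C4-2B MDVR, as the labels have it. Of 5 markers of fibroblasts and blood cells, 1, the collagen gene COL1A1, reached 1 FPKM. PLXND1 was at 7.62 and 7.54 FPKM with siRNA 1 and siRNA 2 in H660, against 9.13 FPKM in the H660 control. In C4-2B MDVR it was at 1.57 and 3.10 FPKM with the siRNAs, against 7.40 FPKM in the control, so the decrease was much the smaller in H660. The share of fragments from mitochondrial genes was 8.58% to 9.64% in H660, 7.44% and 6.83% with the siRNAs in C4-2B MDVR and 3.38% in the control of that line. The C4-2B MDVR control thus stood apart from the other 5 libraries, and every C4-2B MDVR knockdown value rests on it. The part of this difference in the results was not tested.

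Long noncoding RNAs act as RNA and are not translated. MALAT1 gathers in nuclear speckles, where splicing factors are stored, and NEAT1 is the scaffold of paraspeckles, nuclear bodies that hold back proteins and RNAs. GAS5 carries small nucleolar RNAs in its introns, and its spliced RNA is broken down by the decay pathway that is coupled to translation. PCA3, PCAT1 and PCGEM1 were found through their raised levels in prostate tumours, and H19 and MEG3 are expressed from the maternal chromosome only.

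The ends of MALAT1 and NEAT1 are shown because they bear on how these RNAs are caught in a library. MALAT1 and the long isoform of NEAT1 are cut from their primary transcripts by RNase P ahead of a transfer RNA-like structure, and their ends are held by a triple helix of U-rich and A-rich stretches in place of a poly(A) tail added after cleavage. The sequences are those of GENCODE 29 transcripts in GRCh38, at chr11:65505997-65506116 for MALAT1 and chr11:65445421-65445540 for NEAT1, both on the plus strand, with the words of at least 10 letters that the 2 windows share in capitals.
MALAT1 end: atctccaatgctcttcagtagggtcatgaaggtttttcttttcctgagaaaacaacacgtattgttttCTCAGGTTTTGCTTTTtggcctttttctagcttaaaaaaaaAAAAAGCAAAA
NEAT1 end: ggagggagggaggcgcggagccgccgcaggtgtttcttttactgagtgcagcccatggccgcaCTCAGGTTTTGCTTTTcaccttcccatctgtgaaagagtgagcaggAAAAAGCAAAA
The shared words are 16 and 11 letters long and stand in the same order. The longest run of A was 13 bases in the 180-base MALAT1 window and 5 bases in the NEAT1 window. The annotation places the MALAT1-associated transfer RNA-like RNA directly after the end shown, at chr11:65506117-65506173, and lists it as a gene of its own.
MALAT1 transfer RNA-like RNA: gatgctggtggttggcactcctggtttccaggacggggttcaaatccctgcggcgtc
This 57-base RNA was listed at 0 in all 6 libraries, as were all 15 annotated genes that lie wholly within the exons of a member. The microRNA genes MIR612 (in NEAT1), MIR675 (in H19) and MIR770 (in MEG3) were among them. How fragments in such shared bases were assigned is not stated, so a 0 for a nested gene does not show that its RNA was absent.

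GAS5 belongs to the genes whose transcripts begin with a run of pyrimidines, known as 5′ TOP genes, as ribosomal protein genes do. Its start is shown beside those of 4 other hosts of small nucleolar RNAs, since GAS5 is set against these genes in the results. The GAS5 sequence holds the first 30 bases of the GENCODE 29 transcript at chr1:173867962-173867991 (minus strand). The others hold 15 bases before and 30 from the RefSeq start in GRCh38, at chr4:118278747-118278791 (plus) for SNHG8, chr20:49278627-49278671 (plus) for ZFAS1, chr11:62855856-62855900 (minus) for SNHG1 and chr17:76557749-76557793 (plus) for SNHG16. Capitals mark a C followed by at least 4 C or T that lies within 10 bases of the start, searched on the transcribed strand.
GAS5 start: gtCTTTTCgaggtaggagtcgactcctgtg
SNHG8 start: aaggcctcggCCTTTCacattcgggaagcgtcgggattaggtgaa
ZFAS1 start: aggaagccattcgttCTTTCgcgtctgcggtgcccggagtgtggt
SNHG1 start: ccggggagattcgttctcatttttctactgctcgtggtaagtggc
SNHG16 start: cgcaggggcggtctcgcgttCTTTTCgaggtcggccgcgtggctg
Such a stretch was found at a start of 12 of the 15 listed host genes that have a RefSeq promoter, against 42.7% of 27305 genes, and SNHG1 was without it in the window shown. Of 29 annotated GAS5 transcripts, 12 start within the GAS5 stretch or just ahead of it, as the transcript shown does. SNHG8, ZFAS1 and SNHG1 are the most abundant hosts after SNHG6, which is not shown, and SNHG16 was added by choice. GAS5 and SNHG16 share the 12 letters TCTTTTCGAGGT. The longest stretch shared with GAS5 is 4 letters in SNHG8 and 5 letters in ZFAS1 and in SNHG1.

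The 3 RNAs past the level filter kept 1 order in every library, with MALAT1 above GAS5 and GAS5 above NEAT1. MALAT1 (ENSG00000251562, chromosome 11, 65497688 to 65506516) and NEAT1 (ENSG00000245532, chromosome 11, 65422774 to 65445540) are neighbours on the plus strand of GRCh38, and GAS5 (ENSG00000234741, chromosome 1, 173863900 to 173868882) lies on the minus strand. MALAT1 was at 154, 140 and 130 FPKM in H660 with siRNA 1, siRNA 2 and the control siRNA, and at 156, 83.8 and 191 FPKM in the same order in C4-2B MDVR. Among long noncoding RNAs it ranked 1 or 2 by level in 5 libraries and 4 with siRNA 2 in C4-2B MDVR. GAS5 was at 41.9, 50.7 and 39.9 FPKM in H660 and at 49.6, 79.8 and 47.6 FPKM in C4-2B MDVR. NEAT1 was at 20.3, 26.7 and 19.1 FPKM in H660 and at 14.4, 12.0 and 20.7 FPKM in C4-2B MDVR. Within each line the ranges of the 3 RNAs did not overlap, although MALAT1 and GAS5 were close with siRNA 2 in C4-2B MDVR, where their ratio was 1.05, against 2.76 to 4.01 in the other 5 libraries.

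**Figure D1:**
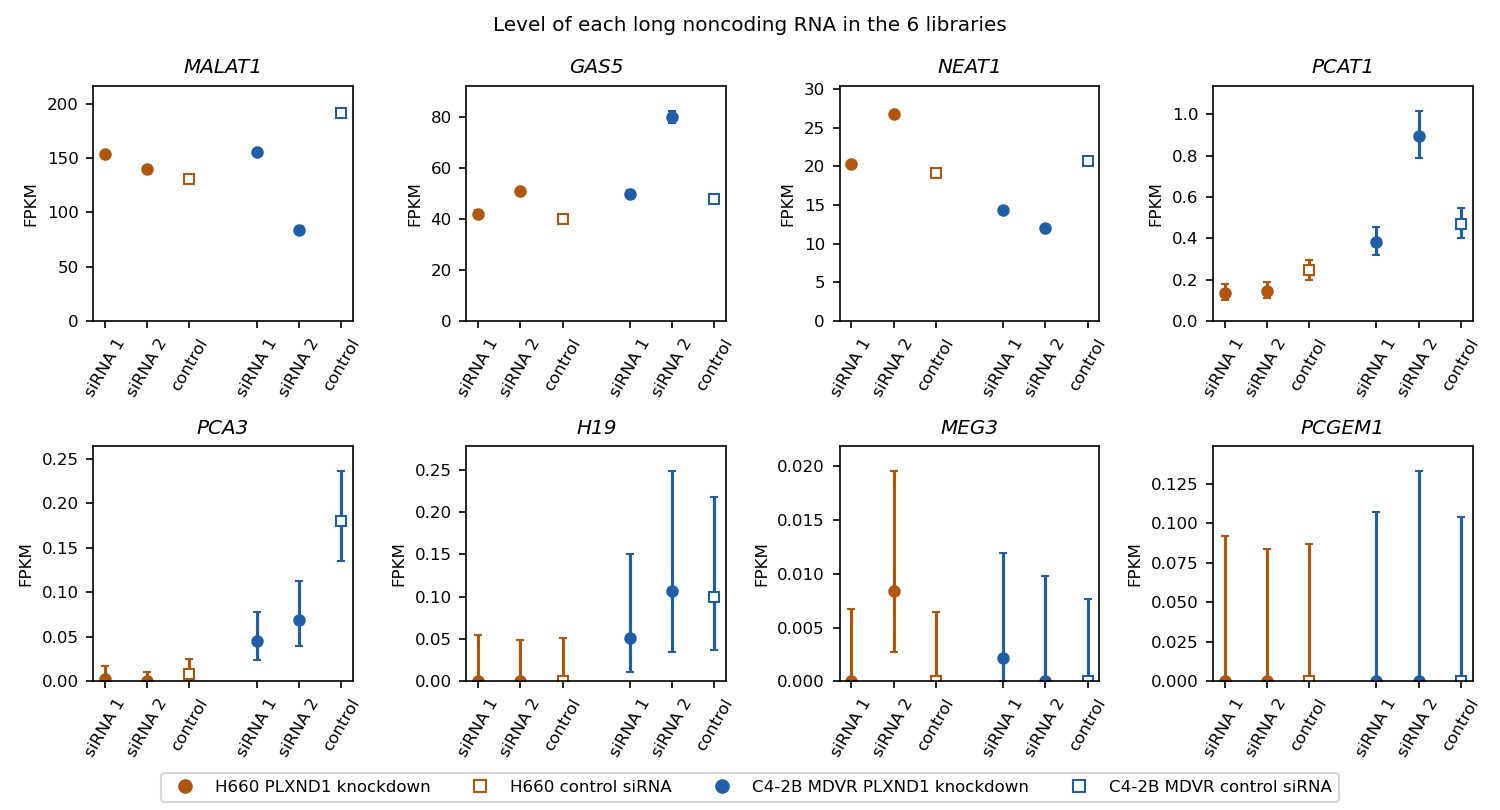
Level of each of the 8 RNAs in FPKM (linear axes that start at 0, with a scale of its own per panel) in H660 (orange) and C4-2B MDVR (blue), filled circles for the PLXND1 siRNA libraries and open squares for the control siRNA library; bars are 95% counting intervals. MALAT1, GAS5 and NEAT1 lie between 12.0 and 191 FPKM in both lines, PCAT1, PCA3 and H19 are higher in every C4-2B MDVR library than in any H660 library, MEG3 has fragments in 2 libraries and PCGEM1 in none. Of all genes tested, which do not include PCAT1, PCA3 or H19, 37.4% were likewise higher in every C4-2B MDVR library.

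MALAT1 had nearly the same mean level in both lines when treatments were pooled, but not in the controls. Its level was 141 ± 11.9 FPKM in H660 and 144 ± 54.6 FPKM in C4-2B MDVR (SD, n = 3 libraries each, treatments pooled), and the H660 values fell inside the range of those of C4-2B MDVR. Between the control libraries alone, MALAT1 in H660 was at 0.682 times its C4-2B MDVR level (95% counting interval 0.671 to 0.693). By limma the line difference, H660 minus C4-2B MDVR with treatment as a term, was 0.05 ± 0.29 on the log2(FPKM + 1) scale (SE, Benjamini-Hochberg adjusted p = 0.876). Its sign rested on single libraries, since it was −0.28 without the C4-2B MDVR siRNA 2 library and −0.07 without the H660 siRNA 1 library. For NEAT1 the level was 22.0 ± 4.09 FPKM in H660 and 15.7 ± 4.48 FPKM in C4-2B MDVR, with the C4-2B MDVR control inside the H660 range. The NEAT1 line difference was 0.48 ± 0.22 (limma adjusted p = 0.0936). GAS5 was at 44.2 ± 5.75 FPKM in H660 and 59.0 ± 18.0 FPKM in C4-2B MDVR, also with overlapping ranges, and its difference was −0.38 ± 0.20 (adjusted p = 0.135). Of the 3 RNAs, 0 passed the threshold of an adjusted p of 0.05 with at least a 2-fold difference, while 38.0% of all genes tested did. Scaling each library without mitochondrial genes and short RNAs moved the median line difference of all genes to 0.24. Relative to that median the differences were 0.11 for MALAT1, 0.53 for NEAT1 and −0.32 for GAS5.

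In C4-2B MDVR both nuclear RNAs were below the control with each siRNA, and in H660 both were above it. MALAT1 gave 31911 and 31792 fragments in the H660 knockdown libraries, against 28464 in the control. The ratio to the control was 1.18 (95% counting interval 1.16 to 1.20) with siRNA 1 and 1.07 (1.06 to 1.09) with siRNA 2. In C4-2B MDVR it gave 27677 and 12023 fragments, against 34966 in the control, with ratios of 0.815 (0.802 to 0.828) and 0.439 (0.430 to 0.448). The siRNA 2 library in C4-2B MDVR was the lowest of the 6, and 0.914% of all genes tested had a lower log2 difference from the control than MALAT1 there. With siRNA 1 this share was 16.7%.

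NEAT1 had ratios to the control of 1.06 (1.03 to 1.09) and 1.40 (1.36 to 1.43) with siRNA 1 and siRNA 2 in H660. The C4-2B MDVR ratios were 0.698 (0.676 to 0.720) and 0.580 (0.560 to 0.601). As for MALAT1 in C4-2B MDVR, siRNA 2 gave the value farther from the control in each line. All these intervals cover counting error only, and with 1 control library a line they do not cover the spread between cultures.

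As a mean over both siRNAs, the difference from the control in H660 was 0.17 ± 0.40 log2 units for MALAT1 and 0.27 ± 0.23 for NEAT1 (SE, limma adjusted p = 1 for each). In C4-2B MDVR it was −0.74 ± 0.40 for MALAT1 (adjusted p = 0.901) and −0.61 ± 0.23 for NEAT1 (adjusted p = 0.851). These SEs pool the siRNA pairs of both lines, so they are not the spread within H660, and they count differences between the siRNAs as noise. For MALAT1 siRNA 2 less siRNA 1 was −0.14 log2 units in H660 and −0.88 in C4-2B MDVR. PLXND1 itself did not pass in C4-2B MDVR (−1.37 ± 0.31, adjusted p = 0.711) or in H660 (−0.24 ± 0.31). The effect in H660 less that in C4-2B MDVR was 0.91 ± 0.57 for MALAT1 and 0.89 ± 0.33 for NEAT1 by limma (adjusted p = 0.985 for each, unadjusted p = 0.179 and 0.0512). Over all genes 0 passed the adjusted limma test in C4-2B MDVR, H660, both lines together or the difference between lines, with 921, 647, 654 and 701 genes at an unadjusted p under 0.05, so the share called was 0% in each. MALAT1, NEAT1 and GAS5 were all above the control with both siRNAs in H660, as 32.1% of all genes tested were, and MALAT1 and NEAT1 below it with both in C4-2B MDVR, as 25.8% were. The pattern of MALAT1 and NEAT1, below the C4-2B MDVR control and above the H660 control with every siRNA, was that of 7.85% of all genes tested.

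**Figure D2:**
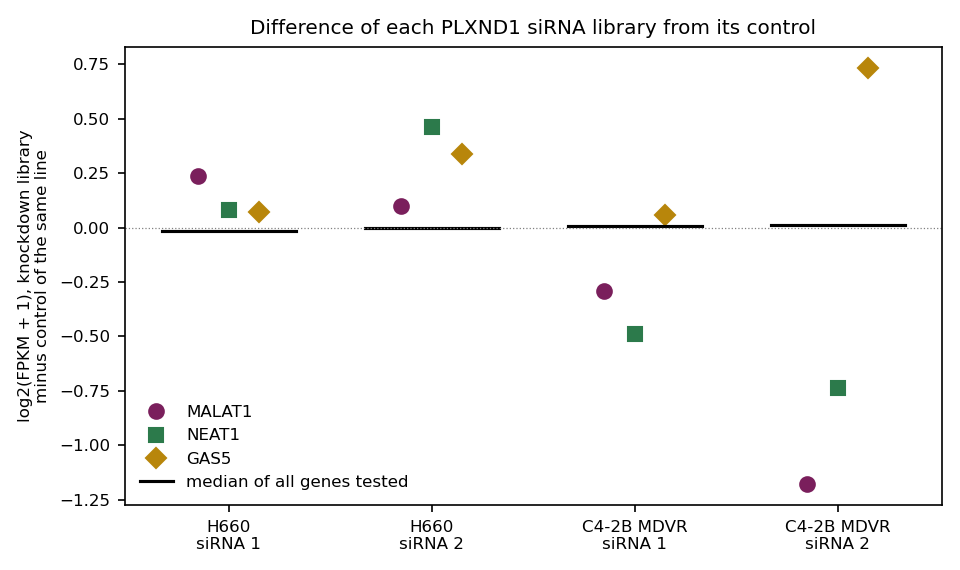
Difference of log2(FPKM + 1) between each PLXND1 siRNA library and the control library of its line for MALAT1 (circles), NEAT1 (squares) and GAS5 (diamonds), with the median of the 15638 genes tested as a black bar. MALAT1 and NEAT1 are above 0 in both H660 libraries and below it in both C4-2B MDVR libraries, where MALAT1 reaches −1.18 with siRNA 2, and GAS5 is above 0 in all 4.

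The ratio of MALAT1 to NEAT1 FPKM was 7.58, 5.23 and 6.81 in H660 with siRNA 1, siRNA 2 and the control siRNA, and 10.8, 6.997 and 9.24 in C4-2B MDVR. In both lines siRNA 2 gave the lowest ratio. NEAT1 levels are for the whole gene, over 22767 exon bases. The long scaffold isoform spans 22743 bases and the other 7 transcripts 512 to 3524 bases, so the level does not show which isoform the fragments came from.

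Genes for proteins that share the nuclear bodies with these RNAs had small median differences from the controls. Of 17 measured paraspeckle proteins 10 were below the control with both siRNAs in H660, where 38.3% of all genes tested were. In C4-2B MDVR 9 were, where 25.8% of all genes were. Divided by recovered totals these counts were 10 and 11, with no share of all genes taken on that scale. The paraspeckle medians were −0.06 and −0.07 log2 units in H660 and −0.19 and −0.16 in C4-2B MDVR with siRNA 1 and siRNA 2, against medians of all genes between −0.02 and 0.01. The NEAT1-binding protein gene NONO was at 139 and 143 FPKM in the H660 knockdown libraries, against 150 FPKM with the control siRNA, and at 106 and 126 FPKM, against 114 FPKM, in C4-2B MDVR. SFPQ, which encodes its partner and is needed to build paraspeckles, was at 75.8 and 71.8 FPKM, against 79.1 FPKM, in H660. Its C4-2B MDVR levels were 21.0 and 29.02 FPKM, against 42.1 FPKM in the control, below it with both siRNAs as NEAT1 was. HNRNPK, which encodes an RNA-binding protein that steers NEAT1 3′ end choice, was the other of the 3 most abundant, at 103 to 121 FPKM in all 6 libraries.

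Of 14 measured nuclear speckle proteins 8 were below the control with both siRNAs in H660, against 38.3% of all genes tested. In C4-2B MDVR 11 were, against 25.8%. On the rescaled values without mitochondrial genes and short RNAs these counts were 9 and 12. No share of all genes was taken on that scale, where their median was −0.03 log2 units in each line. The speckle medians in deposited FPKM were −0.08 and −0.05 log2 units in H660 and −0.29 and −0.17 in C4-2B MDVR. The most abundant were the splicing factor genes U2AF2 (42.0 to 69.0 FPKM over the 6 libraries) and SRSF3 (24.4 to 64.8 FPKM) and the speckle scaffold gene SRRM2 (35.3 to 57.6 FPKM). In no knockdown comparison did a member of either list pass. Between the lines the paraspeckle genes called higher in H660 included RBMX (1.39 log2 units), SFPQ (1.33) and SMARCA4 (1.14), and 0 were called lower. Also called higher were the 3 speckle genes SRSF5 (1.49), SRSF2 (1.35) and SRRM1 (1.16). All genes tested were called higher in H660 in 20.1% of cases and lower in 17.9%.

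GAS5 was higher with siRNA 2 than with the control in both lines. It gave 3578 and 4745 fragments with siRNA 1 and siRNA 2 in H660, against 3586 in the control, and 3628 and 4708 in C4-2B MDVR, against 3585. In deposited FPKM the ratio to the H660 control was 1.05 (1.003 to 1.101) with siRNA 1 and 1.27 (1.22 to 1.33) with siRNA 2. The ratio to the C4-2B MDVR control was 1.04 (0.995 to 1.09) with siRNA 1 and 1.68 (1.60 to 1.75) with siRNA 2. With siRNA 1 in C4-2B MDVR the direction depends on the scale, since GAS5 took 0.0167% of the fragments there and 0.0175% in the control. By limma the mean over both siRNAs was 0.20 ± 0.33 log2 units in H660 (adjusted p = 1), 0.40 ± 0.33 in C4-2B MDVR (adjusted p = 0.960) and 0.30 ± 0.21 over both lines (adjusted p = 0.985). The effect in H660 less that in C4-2B MDVR was −0.19 ± 0.47 (adjusted p = 0.993). In deposited FPKM GAS5 was above the control in all 4 knockdown libraries, as 10.7% of all genes tested were.

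The other hosts of small nucleolar RNAs differed between the siRNAs in the same direction as GAS5 in C4-2B MDVR. Of 18 listed, 16 were measured. With siRNA 2 in C4-2B MDVR 15 of the 16 were above the control, against 51.9% of all genes tested, with a median of 0.57 log2 units, and 13 were when fragments were divided by their recovered total. With siRNA 1 the median was −0.34 and 3 were above the control, against 51.1% of all genes. In H660 10 were above with siRNA 1 (median 0.05), against 44.5% of all genes, and 13 with siRNA 2 (median 0.27), against 47.1%. In C4-2B MDVR 3 were above the control with both siRNAs, ZFAS1, SNHG5 and EPB41L4A-AS1, against 32.0% of all genes tested, and SNHG11 was the 1 below it with both, against 25.8% of all genes. By fragments over the recovered total 3 were below it with both, as on the rescaled values. No share of all genes was taken on either scale.

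SNHG6 was the most abundant, at 199 and 224 FPKM in the H660 knockdown libraries, against 176 FPKM with the control siRNA, and at 28.9 and 56.8 FPKM, against 33.7 FPKM, in C4-2B MDVR. SNHG8 was at 17.6 and 23.5 FPKM, against 15.1 FPKM, in H660 and at 31.6 and 86.6 FPKM, against 36.3 FPKM, in C4-2B MDVR. ZFAS1 was at 24.5 and 32.2 FPKM, against 25.7 FPKM, in H660 and at 19.6 and 36.5 FPKM, against 17.0 FPKM, in C4-2B MDVR. For each of these the siRNA 2 library was the highest of its line. No host gene passed a knockdown test. Between the lines SNHG7 (2.69 log2 units), SNHG5 (2.48), SNHG6 (2.35) and SNHG12 (1.79) were called higher in H660. SNHG16 (−1.98), SNHG14 (−1.61), SNHG8 (−1.28), SNHG4 (−1.15) and SNHG9 (−1.09) were called lower there, SNHG14 having passed the level filter through C4-2B MDVR alone. Line calls were thus 4 higher and 5 lower of the 16 hosts, against 20.1% and 17.9% of all genes tested.

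**Figure D3:**
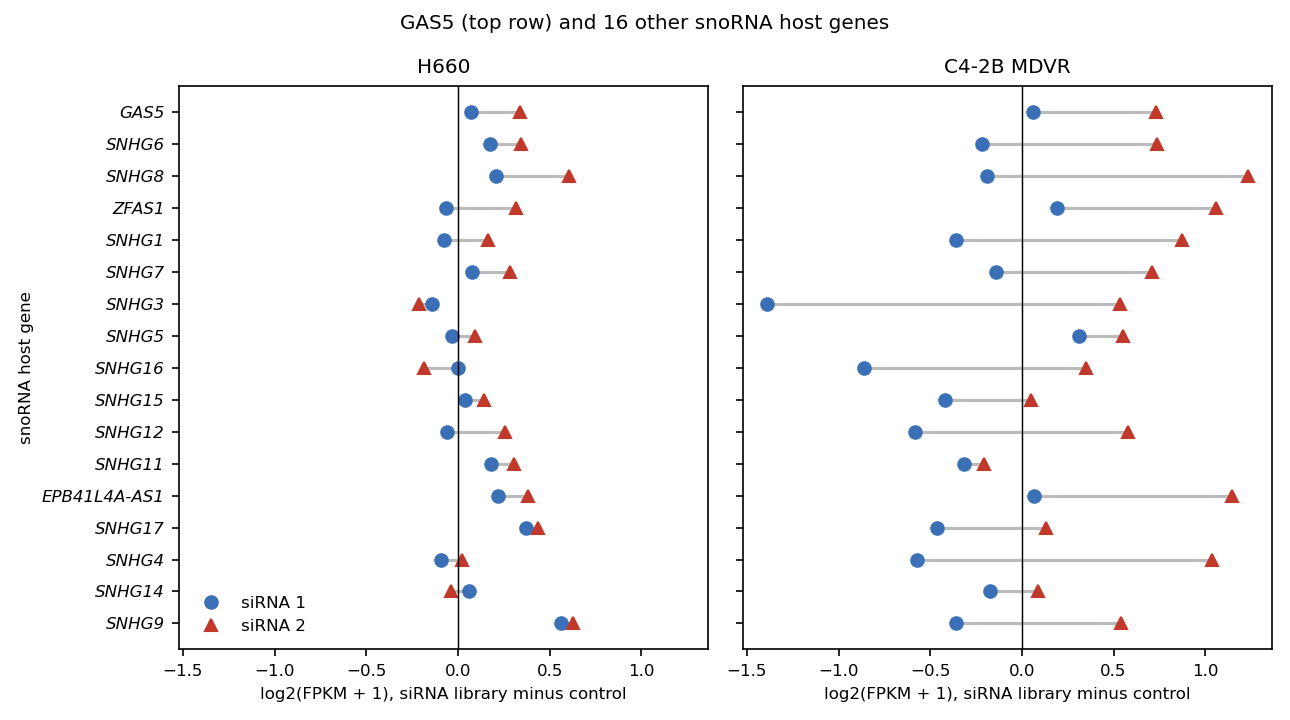
Difference of log2(FPKM + 1) between each PLXND1 siRNA library (circles for siRNA 1, triangles for siRNA 2) and the control of its line, for GAS5 and 16 other host genes of small nucleolar RNAs in H660 (left) and C4-2B MDVR (right). In C4-2B MDVR the siRNA 2 value is above 0 in 15 of the 16 others and the siRNA 1 value in 3, and the H660 values lie closer together.

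GAS5 overlaps GAS5-AS1, on the opposite strand, over 42 exon bases. GAS5-AS1 had 9 to 106 fragments per library. Since the sources used here do not say whether fragments were counted by strand, reads from the 2 genes cannot be told apart, although the shared bases are 1.16% of the GAS5 exons. CDKN1A, the p53 target that encodes p21, is given beside GAS5 because earlier results of these data showed it. It was at 96.3 and 94.5 FPKM in the H660 knockdown libraries, against 92.6 FPKM with the control siRNA, and at 422 and 346 FPKM, against 47.5 FPKM, in C4-2B MDVR.

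PCA3 and PCAT1 were detected at low levels and were higher in C4-2B MDVR. PCA3, which is measured in urine as a prostate cancer test, is transcribed from within PRUNE2 on the opposite strand (GRCh38 chromosome 9, 76691980 to 76863307, plus strand). It gave 1, 0 and 3 fragments in H660 with siRNA 1, siRNA 2 and the control siRNA, and 13, 16 and 53 in C4-2B MDVR. The C4-2B MDVR levels were 0.0455 and 0.0695 FPKM in the knockdown libraries, against 0.180 FPKM in the control, and the highest H660 library was at 0.00855 FPKM. Summed over 3 libraries, the H660 level was 0.0376 times that of C4-2B MDVR (95% counting interval 0.0100 to 0.1001, from 4 and 82 fragments). Its H660 libraries were all below its C4-2B MDVR libraries. Of all genes tested, which do not include PCA3 for its low level, 37.4% had this order and 37.1% the reverse.

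With siRNA 1 in C4-2B MDVR PCA3 was at 0.253 times the control (0.126 to 0.470) and with siRNA 2 at 0.385 times (0.206 to 0.685). When genes were tested with no filter on low values, the mean change was −0.16 ± 0.02 log2 units on the log2(FPKM + 1) scale, which understates the change of such low genes (limma adjusted p = 0.132). Its SE pools the spread of both lines, including H660, where few PCA3 fragments were counted. The 2 knockdown libraries lay below the control, but this rests on 1 control library. The H660 numbers of 3 or fewer fragments are too low to show whether PCA3 differed there.

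PRUNE2 shares 1060 exon bases with PCA3, which are 7.48% of the PCA3 exons, and had far more fragments. It gave 2246 and 2161 fragments in the H660 knockdown libraries, against 2328 in the control, and 3335 and 4074, against 8416, in C4-2B MDVR. The ratios were 1.02 (0.959 to 1.08) and 0.892 (0.841 to 0.946) in H660 and 0.408 (0.392 to 0.425) and 0.618 (0.595 to 0.642) in C4-2B MDVR. PRUNE2 was thus below the C4-2B MDVR control with both siRNAs, as PCA3 was. The strand of the fragments is not known, and how many PCA3 fragments came from PRUNE2 was not tested. In H660 at most 3 fragments per library were counted for PCA3, beside 2161 to 2328 for PRUNE2. KLK3, the androgen receptor target that encodes prostate-specific antigen, is set beside PCA3, itself an androgen-responsive RNA. The C4-2B MDVR levels of KLK3 were 228 and 77.5 FPKM with siRNA 1 and siRNA 2, against 197 FPKM with the control siRNA. KLK3 was thus above the control with siRNA 1 and below it with siRNA 2. KLK2, another of the luminal markers, was at 85.0 and 36.2 FPKM, against 102 FPKM, so below it with both. A part of the androgen receptor in the PCA3 values was not tested.

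PCAT1 acts in cell growth and in the repair of DNA breaks, and lies beside MYC (GRCh38 chromosome 8, 126556323 to 127419050, plus strand). It gave 54, 64 and 102 fragments in H660 with siRNA 1, siRNA 2 and the control siRNA, which is 0.136, 0.147 and 0.245 FPKM. The C4-2B MDVR libraries gave 130, 245 and 164 fragments, which is 0.383, 0.895 and 0.469 FPKM. Every C4-2B MDVR library was above every H660 library, as in 37.4% of all genes tested, which do not include PCAT1. The summed H660 level was 0.315 times that of C4-2B MDVR (0.268 to 0.369). The H660 ratios to the control were 0.558 (0.393 to 0.783) with siRNA 1 and 0.603 (0.434 to 0.832) with siRNA 2. The C4-2B MDVR ratios, 0.816 (0.643 to 1.03) and 1.91 (1.56 to 2.34), went in opposite directions. PCAT1 was not called with no filter on low values, between the lines (−0.42 ± 0.15 log2 units, limma adjusted p = 0.0931) or in any knockdown comparison.

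FAM84B shares 1163 exon bases with PCAT1 on the opposite strand, which are 6.90% of the PCAT1 exons. It gave 5362 and 5995 fragments in the H660 knockdown libraries, against 4940 in the control, and 1590 and 1976, against 1838, in C4-2B MDVR. FAM84B was higher in H660 than in C4-2B MDVR and above the H660 control with both siRNAs, unlike PCAT1 in both respects. In C4-2B MDVR both genes had their highest value with siRNA 2. POU5F1B, on the same strand, shares a further 848 bases and had 7 to 21 fragments.

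**Figure D4:**
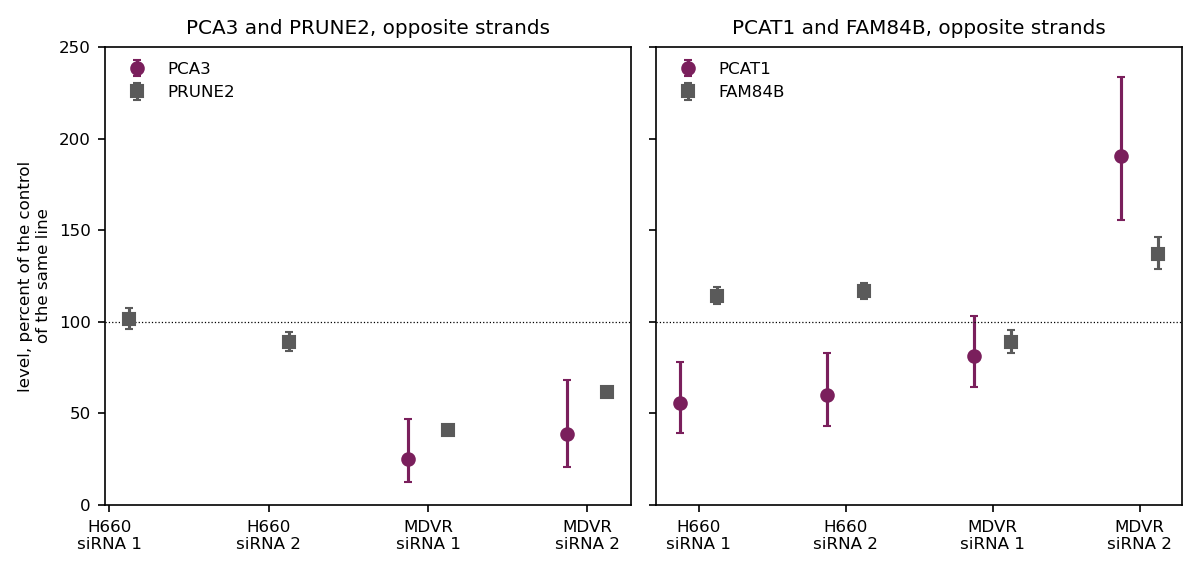
Level in each PLXND1 siRNA library as a percent of the control of its line, for PCA3 and PRUNE2 (left) and PCAT1 and FAM84B (right), genes that overlap on opposite strands, with 95% counting intervals; PCA3 in H660 is left out for its low number of fragments. PCA3 and PRUNE2 are both under 100% in C4-2B MDVR, and PCAT1 and FAM84B lie on opposite sides of 100% in both H660 libraries.

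PCGEM1, a prostate RNA tied to androgen receptor signalling, was listed at 0 in all 6 libraries. A count of 0 allows up to 3 fragments, which for this gene (GRCh38 chromosome 2, 192749845 to 192776899, 1712 exon bases) is 0.0680 to 0.108 FPKM by library. Of 15 annotated genes on a list of other prostate long noncoding RNAs, 6 were measured. The 3 most abundant were PCAT6 (4.88 to 14.7 FPKM), CTBP1-AS, antisense to a corepressor gene (0.164 to 5.66 FPKM), and PCAT7 (0.918 to 3.68 FPKM). CTBP1-AS (−1.93 log2 units), SCHLAP1 (−1.49), which is linked to aggressive prostate cancer, and PCAT6 (−1.27) were called lower in H660 than in C4-2B MDVR. CTBP1-AS and SCHLAP1 passed the level filter through C4-2B MDVR alone, so a difference was built into their choice. Lower calls were made for 3 of the 6, against 17.9% of all genes tested. No knockdown effect passed for any of the 6. The median over the 6 in C4-2B MDVR was 0.19 log2 units with siRNA 1 and −0.13 with siRNA 2.

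H19 and MEG3 were close to undetected. H19, which carries MIR675 and lies beside IGF2 (GRCh38 chromosome 11, 1995176 to 2001470, minus strand), gave 0 fragments in every H660 library. The C4-2B MDVR libraries gave 3, 5 and 6 fragments with siRNA 1, siRNA 2 and the control siRNA, which is 0.0514, 0.106 and 0.0999 FPKM. Against a floor of 3 fragments in each H660 library, H19 was at least 2.02-fold lower in H660 over the 3 libraries. With no filter on low values its line difference was −0.12 ± 0.03 log2 units and did not pass (limma adjusted p = 0.0506). MEG3, a growth-restraining RNA of the DLK1 locus (GRCh38 chromosome 14, 100779410 to 100861031, plus strand), gave 5 fragments in the H660 siRNA 2 library, 1 in the C4-2B MDVR siRNA 1 library and 0 in the other 4. No knockdown difference was detectable at this depth for either RNA. PCA3 and H19 overlapped in level in C4-2B MDVR, at 0.0985 ± 0.0719 and 0.0859 ± 0.0300 FPKM (SD, n = 3), below PCAT1 at 0.583 ± 0.274 FPKM.

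Of 7 measured imprinted partners of these RNAs, the growth inhibitor gene CDKN1C (−1.43 log2 units) and the channel gene KCNQ1 (−1.63) were called lower in H660 and the growth regulator gene PLAGL1 (1.29) higher, and 0 passed for the knockdown. KCNQ1 and PLAGL1 passed the level filter only through the line where they are higher. Of all genes tested 17.9% were called lower in H660 and 20.1% higher. The most abundant was CTCF, which encodes the insulator protein that binds the H19 control region, at 2.74 to 7.50 FPKM, before CDKN1C (1.97 to 9.06 FPKM) and ZNF445 (2.24 to 3.69 FPKM). Of 10 measured hosts and neighbours of the 8 RNAs, 5 were called lower in H660 and 1 higher, against 17.9% and 20.1% of all genes tested. Those called lower included MYC (−4.13 log2 units), beside PCAT1, MRPL23 (−1.79), beside H19, PRUNE2 (−1.36), and LTBP3 (−1.42), beside MALAT1. TMEM151A (2.72), which passed the filter through H660 alone, was the 1 called higher there. MALAT1 thus did not pass the line test while its neighbour LTBP3 did, but no test compared the genes with each other. With siRNA 1 and siRNA 2, MYC was at 3.98 and 6.05 FPKM in H660, against 3.92 FPKM with the control siRNA, and in C4-2B MDVR at 54.0 and 146 FPKM, against 115 FPKM.

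Of 8 other measured long noncoding RNAs of nucleus and cytoplasm, NORAD (48.0 to 106 FPKM), a decoy for Pumilio proteins, DANCR (7.56 to 34.0 FPKM) and TUG1 (9.58 to 13.4 FPKM) were the most abundant. They were below MALAT1 in every library, except that NORAD was above it with siRNA 2 in C4-2B MDVR. HOTAIRM1 (2.35 log2 units) was called higher in H660 and PVT1 (−2.11), a neighbour of MYC, lower. Both passed the filter only through the line where they are higher. Over all genes tested the shares called were 20.1% higher and 17.9% lower. For the knockdown 0 of the 8 passed. Of 13 listed RNAs that lack a poly(A) tail, 1, the signal recognition particle RNA RN7SL2, was measured. It was at 54.5, 157 and 76.9 FPKM in H660 with siRNA 1, siRNA 2 and the control siRNA, and at 728, 528 and 464 FPKM in C4-2B MDVR, so it was called lower in H660 (−2.68). Several others of the 13 were listed at 0 in all 6 libraries. How RNAs without a tail were caught and assigned was not tested.

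The genes whose values over the 6 libraries lay nearest to those of each RNA were sought among 12565 protein-coding and long noncoding genes, by the Euclidean distance of log2(FPKM + 1) less its mean. For MALAT1 these were the choline kinase gene CHKA (0.27) and ZNF428 (0.31), against a median distance of 1.40. CHKA was at 10.9, 11.3 and 9.66 FPKM in H660 and 11.1, 5.92 and 12.1 FPKM in C4-2B MDVR, in the order siRNA 1, siRNA 2 and control, and so was lowest with siRNA 2 in C4-2B MDVR as MALAT1 was. For NEAT1 they were the antisense RNA SUCLA2-AS1 (0.31) and the dehydrogenase gene DHRS4 (0.32), against a median of 1.34. For GAS5 they were RHEB (0.19), which encodes a small GTPase that switches on mTORC1, and LNX2 (0.20), against a median of 1.24. RHEB was at 20.7, 24.7 and 18.0 FPKM in H660 and 23.3, 37.0 and 25.6 FPKM in C4-2B MDVR, highest with siRNA 2 in each line as GAS5 was. With 6 libraries and this many candidates, likeness of this kind is a description only.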

How the data were processed

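The 6 libraries were labelled messenger RNA libraries sequenced as paired ends. Per the submitters' processing notes, HISAT, Cufflinks and the build hg18 were used, with no version given; whether fragments were counted by strand is not given in the sources used here. The values the authors deposited are FPKM for 58735 Ensembl gene IDs, all of which are in GENCODE 29, an annotation of GRCh38, from which names, exon lengths and coordinates were taken. Multiplied by exon length, FPKM came out as whole fragments, within 0.05, in 100% of the 11224 to 13428 genes per library with at most 100 fragments, and fragment numbers were recovered on that basis. The total implied by 1 fragment was 0.92 to 1.08 times the recovered total, a factor of unstated source that the deposited values keep.

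log2(FPKM + 1) was tested with limma 3.58.1 in R 4.3.3 (intensity trend, two-sided, Benjamini-Hochberg over all 15638 genes with a mean of at least 1 FPKM over the 3 libraries of a line, threshold 0.05, and at least 2-fold between lines). The line difference and the effect in both lines used line and treatment as additive terms (3 residual degrees of freedom) and the other effects 4 groups (2 residual degrees of freedom), in which each lone control is assumed to vary like the knockdown pairs. With 4 groups the SE pools the knockdown pairs of both lines, so a gene has the same SE in H660 and in C4-2B MDVR. Intervals are 95% exact intervals of fragment numbers and cover counting error only, and floors are 3 fragments. The fits were tested on simulated data. The members, gene lists, markers and tests were chosen with earlier results of these data known. The genes named are the members, PLXND1, the 3 most abundant of each list and those that passed, the 2 nearest in pattern, and KLK3 and CDKN1A; markers that the text names, genes overlapping a member, SNHG1 with its start, and the hosts above or below the control with both siRNAs were named besides. A few genes that this rule takes are not reported here. Alternatives were another pseudocount, no filter, quantile normalization, rescaling, voom, a block for the siRNA number and leaving out each library (the controls for the line difference only).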

Additional observations from a re-analysis of the deposited data

Results flagged for a closer look

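MALAT1 and NEAT1 were each below the control in both C4-2B MDVR knockdown libraries and above it in both H660 knockdown libraries. Of all genes tested 7.85% had this pattern. The effect in H660 less that in C4-2B MDVR was 0.91 log2 units for MALAT1 and 0.89 log2 units for NEAT1, and neither passed limma's test of that difference (adjusted p = 0.985 for each). Each value uses 1 control library per line, and the C4-2B MDVR control stands apart by a mitochondrial share of 3.38%, against 6.83% to 9.64% in the other 5 libraries. The part of that share in the result was not tested. PLXND1 was at 0.835 and 0.826 times the control with siRNA 1 and siRNA 2 in H660. In C4-2B MDVR it was at 0.212 and 0.418 times, so the 2 effects come from unequal knockdowns.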

How the results depend on the processing

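Of 156 values of MALAT1, NEAT1 and GAS5 under 12 alternatives, 153 kept their direction and their side of the threshold and 3 changed sign. Some could not change direction, since no filter and the block for the siRNA number left the log2 values as they were. Leaving out a knockdown library of a line likewise left the knockdown effect in the other line as it was. The 156 values are thus not separate checks. With single libraries left out the MALAT1 line difference ran from −0.28 (C4-2B MDVR siRNA 2 left out) to 0.36 (either control left out), with −0.07 when H660 siRNA 1 was left out. That of NEAT1 ran from 0.29 to 0.78 and that of GAS5 from −0.55 to −0.17. Leaving out either control gave the same line difference for each RNA, since it then rests on the knockdown libraries alone. Quantile normalization put the line difference at 0.46 for MALAT1 and −0.07 for GAS5. The GAS5 difference of the effect between lines ran from −0.53 (C4-2B MDVR siRNA 1 left out) to 0.15 (C4-2B MDVR siRNA 2 left out). Adjusted p-values were under 0.05 for 6 of the values, all line differences under 2-fold, of which 5 were of NEAT1 and 1 of GAS5. The NEAT1 effect in C4-2B MDVR ran from −0.79 to −0.49 and that of MALAT1 from −1.18 to −0.29, those of MALAT1 being siRNA 2 alone and siRNA 1 alone. Over all genes, calls for the effect in H660 numbered 1 with a pseudocount of 0.1, 1 with quantile normalization and 1 with the replicate block, and calls in C4-2B MDVR numbered 2 when libraries were rescaled without mitochondrial genes and short RNAs. With no filter on low values 851, 876 and 1372 of 34007 genes were called in C4-2B MDVR, in H660 and for the difference between lines; the cause was not tested. Counts of the line difference ran from 5851 to 6028 without single libraries and from 5788 to 7493 otherwise, and the knockdown counts stayed at 0 without any 1 of the 4 knockdown libraries. Without a control the effect in its line has no value, so the control libraries were left out for the line difference only. The sample titles use the same siRNA numbers in both lines, but do not state that a number names the same siRNA in each. The difference between siRNA 1 and siRNA 2 in H660 and in C4-2B MDVR correlated at −0.00 over 15638 genes, so the libraries were not treated as pairs. For the low RNAs depth is the limit, with 0 to 53 fragments for PCA3, H19, MEG3 and PCGEM1.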
